A study of Mus musculus with 6 samples.

Results

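Genes of the eukaryotic translation initiation factors (eIFs) were examined in mouse CD4+ T cells kept with icilin. The members are all genes whose symbol starts with Eif1 to Eif6 and that have a probe set with a single gene symbol in the array annotation, leaving out the eIF2 kinases (Eif2ak), the eIF4E-binding proteins (Eif4ebp) and pseudogenes. There were 44 such genes among 22180 in all, and the brightest probe set stood for a gene that had more than 1. The icilin group holds 3 arrays of splenic CD4+ T cells from wild-type C57BL/6 female mice about 8 weeks old, treated for 24 h with 100 µM icilin, a man-made cooling agent known as an agonist of the ion channels TRPM8 and TRPA1. The vehicle group holds 3 arrays of the same kind of cells given the solvent dimethyl sulfoxide (DMSO) for 24 h. Cells of both groups had first been stimulated for 24 h with antibodies to CD3 and CD28, and the same 3 mice gave cells to each group. RNA was measured on Affymetrix Mouse Gene 2.0 ST arrays, and every level below is a log2 value made by Robust Multi-Array Average (RMA), so a difference of 1 is a 2-fold change. Each array is RNA of a whole culture, so fewer cells of a type and less RNA per cell cannot be told apart.

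Initiation factors bring the ribosome, the initiator methionyl-tRNA and the mRNA together at the start codon. eIF2 carries the initiator tRNA in a complex with GTP and is recharged by its exchange factor eIF2B; eIF1, eIF1A, eIF3 and eIF5 assemble with it on the small ribosomal subunit; the eIF4 factors bind the mRNA cap and unwind the leader; eIF5B then joins the large subunit, which eIF6 keeps apart until then. Stimulated T cells raise protein synthesis as they enter growth, and stress that blocks eIF2B through phosphorylated eIF2 slows initiation.

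The arrays carried the marks of the labelled cells. All 6 measured T cell markers, Cd4 among them, were brighter than the median gene. Of 14 measured markers of CD8 T, B, natural killer, myeloid and red cells and platelets, 10 were dimmer than the median gene. The 4 brighter ones were Cd8b1 and all 3 measured B cell markers, Cd79a, Cd79b and Ms4a1. Their log2 differences, icilin minus vehicle, were 0.39, 0.09, -0.01 and 1.01 in that order. The summed linear signal of the T cell markers was 10854 to 11363 in icilin arrays and 10859 to 11632 in vehicle arrays. That of the other markers was 321 to 359 in icilin arrays and 282 to 310 in vehicle arrays, without overlap. Of these markers the costimulatory receptor gene Cd28 (0.34) and the B cell gene Ms4a1 (1.01) passed the adjusted p, both higher with icilin. The part of these other cells in the results was not tested. Across genes, arrays correlated at r of 0.994 to 0.996, and genes are not independent replicates.

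As a family, the initiation factor genes stayed within narrow limits. A gene counts here as changed at an adjusted p under 0.1 (limma, Benjamini-Hochberg over all genes) and at least 1.5-fold, as in the study's own test. By limma 0 of the 44 genes changed, where 1.4% of all genes did. Significance analysis of microarrays (SAM), the test the study named, also gave 0, where 1.49% of all genes passed both limits. No member differed by 1.5-fold, so the fold limit alone fixed the count of 0 in both tests. Without the fold limit 2 passed the adjusted p, Eif3j1 higher and Eif1b lower, which is 4.55% of the members beside 5.28% of all genes (2.27% higher and 3% lower). By SAM 1 member passed the false discovery rate alone, Eif1b, as did 4.54% of all genes. With p-values left unadjusted, 7 members were higher and 2 lower at under 0.05, which is 20.5% of members beside 17.1% of all genes (9.09% higher and 8.05% lower). For higher and lower calls combined, the shares in these fits were thus near those of the whole array. Split by direction, the 7 of 44 members higher at an unadjusted p under 0.05 were a larger share than the 9.09% of all genes. The 2 of 44 lower were a smaller share than the 8.05% of all genes. This lean toward higher calls was not tested. The count past the adjusted p depended on the fit: it was 0 with the replicate number as a block. With variances that follow intensity it was 10 of the 44 members (9 higher and 1 lower), a larger share than the 11.8% of all genes that passed. But 41 of the 44 members were brighter than the median gene, and the share of such genes under that fit was not computed.

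The differences were small in size. The log2 difference, icilin minus vehicle, had a median of 0.00 over the 44 members (0.0027) and of 0.01 over all genes, with 23 members above 0 and 21 below. The largest difference in either direction was 0.33 in size, and the median size was 0.07, against 0.10 for all genes. The 95% interval of the difference lay within 1.5-fold up or down for 44 of 44 members, each interval taken by itself, and for 89.2% of all genes. The interval bounds farthest from 0 were -0.50 for Eif1b and 0.49 for Eif3j1. A miss of the test is not evidence of no change, but for each of these genes a 1.5-fold change lies outside its interval. For the 3 members dimmer than the median gene, Eif2c5, Eif2s3y and Eif4e1b, the interval may describe background rather than RNA of the gene. RMA makes the arrays alike in distribution, so a shift common to most genes would not show.

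**Figure D1:**
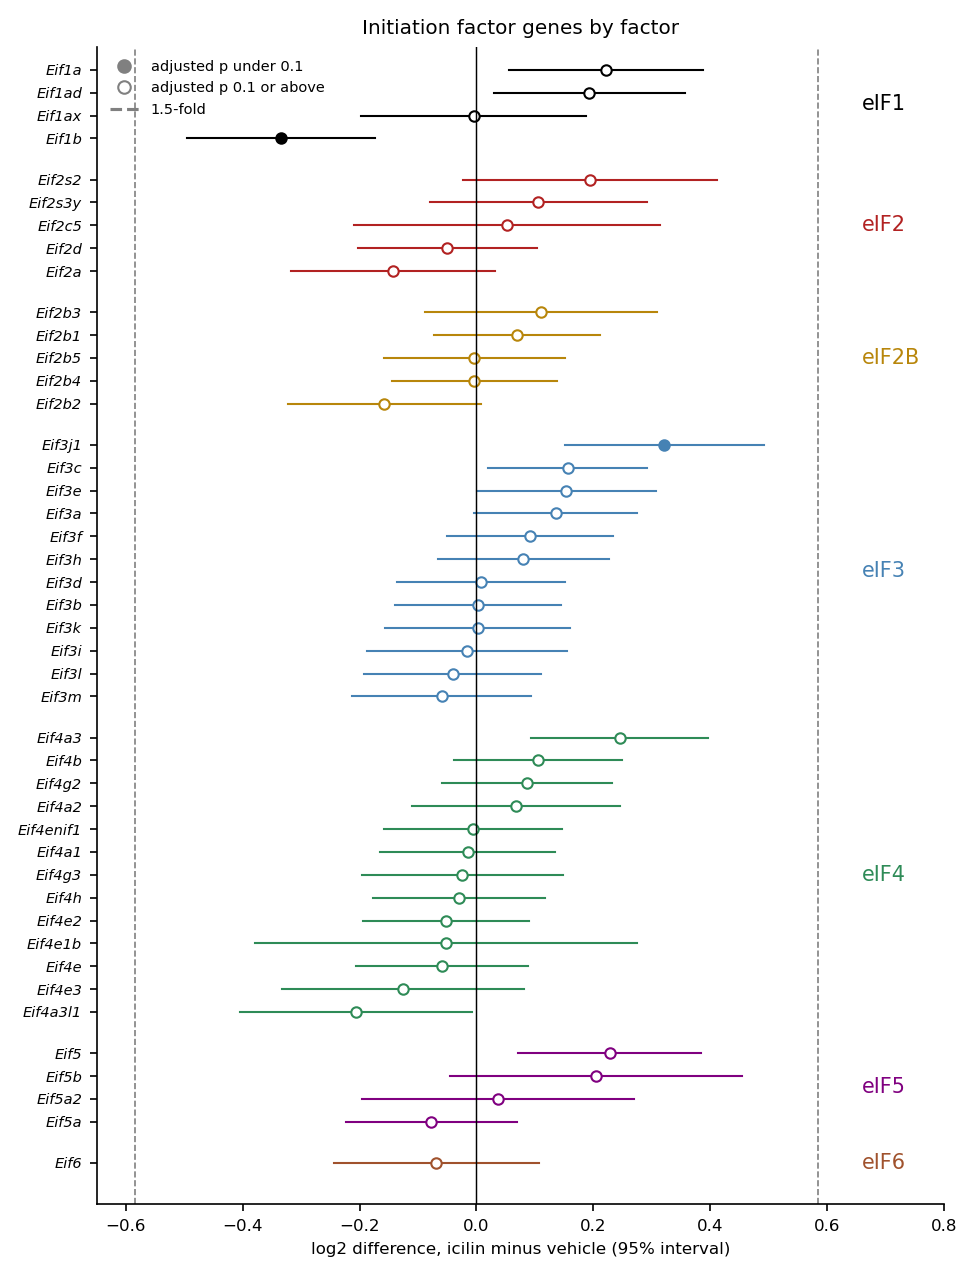
Log2 difference (icilin minus vehicle, x axis) of each of the 44 initiation factor genes (y axis), grouped by factor, with 95% intervals as bars and 1.5-fold as dashed lines. Filled points mark the 2 genes past the adjusted p of 0.1, Eif3j1 and Eif1b; all intervals end inside the dashed lines.

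Most members had bright probe sets: 41 of the 44 were brighter than the median gene. The median SE of a log2 difference was 0.07 over members and 0.09 over all genes. The 3 icilin and 3 vehicle arrays did not overlap in 15 members, 12 with icilin above and 3 with icilin below vehicle, which is 34.1% beside 24.1% of all genes (13.6% above and 10.5% below). Among genes brighter than the median gene, a comparison chosen after the data were seen, that share was 36.8%, and it was 36.6% of the 41 bright members. The adjusted p was passed by 4.88% of the bright members and 9.02% of bright genes, and an unadjusted p under 0.05 was reached by 22.0% and 24.8%. For both directions combined, the share of bright members whose groups separate was thus close to that of other bright genes. By direction, 12 of the 41 bright members had icilin above vehicle and 3 had it below. Of the 11090 bright genes, 2400 had icilin above and 1677 had it below. The difference in direction was not tested.

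The eIF1 group holds Eif1b, a close relative of the start codon selection factor eIF1, both genes for the scanning factor eIF1A (Eif1a and Eif1ax), and Eif1ad, which encodes a protein with an eIF1A-like domain. Eif1b was the lowest of all 44 relative to vehicle. It stood at 8.37, 8.30 and 8.22 in icilin arrays, against 8.68, 8.61 and 8.61 in vehicle arrays. Every icilin array was below every vehicle array. The difference was -0.33 ± 0.07 (SE), which is -20.7%, with a limma adjusted p of 0.0510 and a false discovery rate of 0.0617 by SAM. The call held without icilin replicate 1 (-0.37, limma adjusted p = 0.0996) and ended without any other single array (-0.35 to -0.30, limma adjusted p 0.128 to 0.157). Its close relative Eif1 had no probe set with a single symbol and was not analysed here, and whether probes of Eif1b also bind Eif1 RNA was not tested.

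Eif1a stood at 8.90, 8.85 and 9.01 in icilin arrays and at 8.76, 8.65 and 8.69 in vehicle arrays, a difference of 0.22 ± 0.07 (limma adjusted p = 0.172). Eif1ad differed by 0.19 ± 0.07 (limma adjusted p = 0.222). In both the icilin arrays lay above the vehicle arrays, but neither passed the adjusted p. Eif1ax, the X-linked eIF1A gene, differed by -0.00 (-0.0046), with icilin arrays at 8.94 to 9.00 inside the vehicle range of 8.90 to 9.13. The 4 members of this group thus pointed in different directions, with a median of 0.09.

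The sequence around the start site of Eif1b is shown because it holds a match to the E-box CACGTG, the letters bound by MYC and its relatives, whose targets include many genes of protein synthesis. That of Eif3j1, the other gene past the adjusted p, holds none, and that of Eif4e, the gene of the cap-binding protein, holds 2 and is shown for comparison. Each window runs from 250 bases before to 50 after the RefSeq start, on the plus strand of GRCm38.p6, with E-box letters in capitals: Eif1b at chr9:120492356-120492655, Eif3j1 at chr2:122028330-122028629 and Eif4e at chr3:138527018-138527317.
Eif1b: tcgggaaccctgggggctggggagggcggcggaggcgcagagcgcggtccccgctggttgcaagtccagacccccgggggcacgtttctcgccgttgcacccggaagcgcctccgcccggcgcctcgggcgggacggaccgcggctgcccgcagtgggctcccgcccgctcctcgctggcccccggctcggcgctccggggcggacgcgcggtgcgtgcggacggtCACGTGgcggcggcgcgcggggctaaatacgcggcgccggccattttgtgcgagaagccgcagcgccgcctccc
Eif3j1: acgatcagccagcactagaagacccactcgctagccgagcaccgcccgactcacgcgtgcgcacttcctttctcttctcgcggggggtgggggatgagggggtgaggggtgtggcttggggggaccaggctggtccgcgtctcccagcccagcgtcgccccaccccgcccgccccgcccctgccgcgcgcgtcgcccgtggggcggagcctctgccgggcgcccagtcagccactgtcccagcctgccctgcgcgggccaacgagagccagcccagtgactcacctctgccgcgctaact
Eif4e: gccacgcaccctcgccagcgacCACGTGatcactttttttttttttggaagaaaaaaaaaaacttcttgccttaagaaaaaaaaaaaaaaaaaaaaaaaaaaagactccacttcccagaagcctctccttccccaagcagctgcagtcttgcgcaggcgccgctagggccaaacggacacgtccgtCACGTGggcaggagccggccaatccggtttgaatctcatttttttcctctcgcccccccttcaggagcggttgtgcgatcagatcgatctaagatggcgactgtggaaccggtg
The Eif1b match starts at position -24 from the start site, and those of Eif4e at -228 and -64.

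Promoter windows were given for 35 of the 44 members. CACGTG, which reads the same on both strands, was in a window of 9 of them (25.7%), beside 8.91% of protein-coding genes and 8.09% of all genes with a window. The 9 were Eif1b, Eif3a, Eif3f, Eif3k, Eif4a1, Eif4e, Eif4h, Eif5a and Eif5a2. The windows of members were also richer in G and C, with a median of 62.7% against 56.3% in windows of protein-coding genes. The 9 genes had a median log2 difference of -0.02 (-0.33 to 0.14), and the 26 without the letters one of 0.01 (-0.21 to 0.32), so the ranges of both sets overlap. The core of the CEBP-ATF response element, TGATGNAA on either strand, was in 0 of the 35, and in 4.13% of protein-coding genes. A match of letters is a description of the window and no evidence of binding.

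eIF2 has 3 subunits, of which the beta subunit gene Eif2s2 and the Y-linked gamma subunit gene Eif2s3y were measured by single-symbol probe sets. Eif2s2 stood at 7.12, 7.20 and 7.20 in icilin arrays, against 7.09, 6.79 and 7.05 in vehicle arrays. The groups did not overlap, but vehicle replicate 2 lay apart from the other two. The difference was 0.19 ± 0.09 (limma adjusted p = 0.344), and 0.10 without vehicle replicate 2. Eif2s3y, which female cells lack, gives the signal of a gene that is absent. It read 2.11 to 2.32 in icilin arrays and 2.02 to 2.16 in vehicle arrays, and 91.0% of genes were brighter.

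The other symbols starting with Eif2 belong to proteins outside the eIF2 trimer. Eif2a encodes an alternative initiator tRNA carrier that is not the eIF2 alpha subunit. It stood at 9.43, 9.44 and 9.50 in icilin arrays, all below the 9.53, 9.71 and 9.56 of vehicle arrays (-0.14 ± 0.07, limma adjusted p = 0.390). Eif2d, a factor of reinitiation and ribosome recycling, differed by -0.05 ± 0.07 (limma adjusted p = 0.757). Eif2c5, listed by RefSeq as a long non-coding RNA with the synonym Ago5, is a member by its symbol only and differed by 0.05 ± 0.11, on a probe set dimmer than 73.2% of genes. The 5 genes had a median of 0.05, and without Eif2c5 and Eif2s3y the remaining 3 had one of -0.05, so the sign of this median depends on which members are counted.

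eIF2B, the exchange factor that recharges eIF2 and is the target of the integrated stress response, has 5 subunits, and all 5 genes were measured. None passed the adjusted p, where 5.28% of all genes did, and 0 had an unadjusted p under 0.05, where 17.1% of all genes did. Eif2b2, the beta subunit, had the smallest p. It stood at 8.20, 8.09 and 8.15 in icilin arrays, against 8.39, 8.29 and 8.24 in vehicle arrays, a difference of -0.16 ± 0.07 (limma adjusted p = 0.314). Its groups did not overlap, though the highest icilin array was close to the lowest vehicle array. The alpha subunit gene Eif2b1 differed by 0.07 ± 0.06 and the gamma subunit gene Eif2b3 by 0.11 ± 0.08. Eif2b4 and Eif2b5, the delta and the catalytic epsilon subunit, both differed by -0.00 (-0.0038 and -0.0036). The 5 genes had a median of -0.00 (-0.0036), and the signs of Eif2b4, Eif2b5 and this median turned with arrays centred on their median; the 95% intervals of all 5 lay between -0.32 and 0.31.

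eIF3 is the largest initiation factor, a scaffold on the small ribosomal subunit, and 12 of its subunit genes were measured. Of these 9 (75.0%) were above 0 and 3 below. Above 0 were 53.0% of all genes and 55.4% of genes brighter than the median gene. The 12 had a median of 0.04, which was 0.026 to 0.060 without single arrays. The signs of Eif3b, Eif3d, Eif3i and Eif3k turned under some alternatives. Eif3j1, which encodes the loosely attached j subunit, had the largest positive difference of all 44 members. It stood at 6.88, 7.00 and 6.91 in icilin arrays, against 6.53, 6.60 and 6.69 in vehicle arrays. All icilin arrays were above all vehicle arrays. The difference was 0.32 ± 0.07, or 25.0%, with a limma adjusted p of 0.0705. It did not pass with any 1 of the 6 arrays left out (0.28 to 0.36, limma adjusted p 0.103 to 0.208), nor by SAM. A near-identical mouse gene, Eif3j2, shares a probe set with Eif3j1 that was not used here, and whether the probes of Eif3j1 also read Eif3j2 was not tested.

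Among the remaining 11 subunit genes, 4 had arrays that separated the groups and 7 did not. With Eif3j1 that is 41.7% of the 12, beside 24.1% of all genes and 36.8% of genes brighter than the median gene. Eif3c, an octamer core subunit, had 11.24, 11.22 and 11.24 in icilin arrays and 11.08, 11.09 and 11.07 in vehicle arrays, a difference of 0.16 ± 0.06 (limma adjusted p = 0.231). Eif3e differed by 0.15 ± 0.06 (limma adjusted p = 0.289) and Eif3a, the largest core subunit, by 0.14 ± 0.06 (limma adjusted p = 0.306). The icilin and vehicle arrays of these 3 and of Eif3f (0.09) did not overlap, although none passed the adjusted p. For Eif3c the spread within each group was 0.01 (SD, n = 3), and an SD of 3 arrays is itself uncertain. The limma SE of 0.06 is that of a difference of means, with the variance drawn by eBayes toward that of all genes. It is thus not a like measure to the SD.

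Eif3h, whose protein sits with Eif3f in the complex, differed by 0.08 ± 0.06 with overlapping groups. The RNA-binding subunit gene Eif3b (0.00, from 0.0030), the cap-binding subunit gene Eif3d (0.01), Eif3i (-0.02), Eif3k (0.00, from 0.0024), Eif3l (-0.04) and Eif3m (-0.06) had limma adjusted p of 0.702 to 0.991. A second, dim probe set of Eif3d differed by -0.22 (limma adjusted p = 0.639 over all probe sets). The subunit genes of one complex thus did not share one value, but differences between subunits were not tested.

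**Figure D2:**
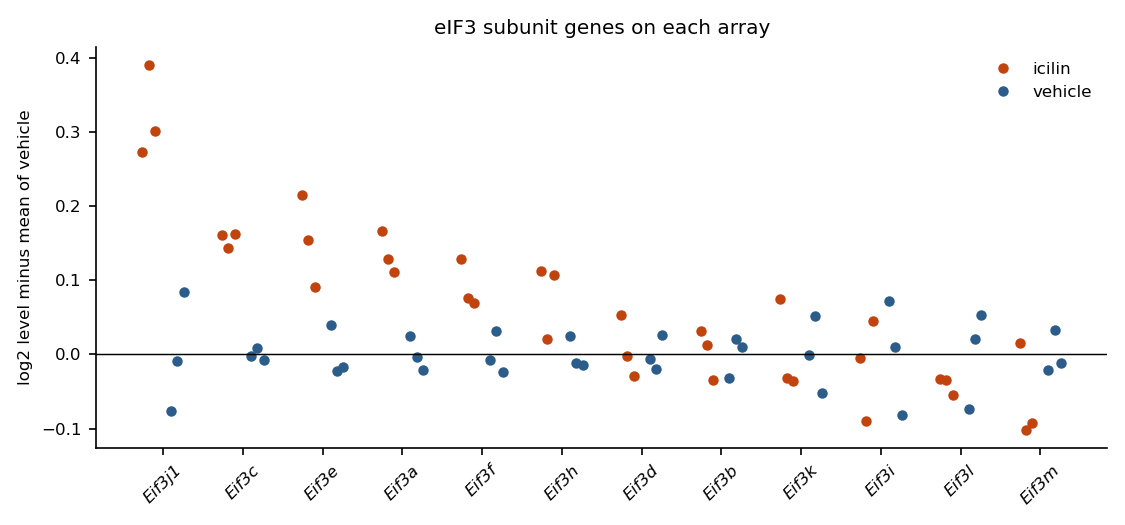
Level of the 12 eIF3 subunit genes on each array, as the log2 level minus the mean of the vehicle arrays (y axis), with 3 icilin (orange) and 3 vehicle (blue) points per gene, ordered by difference. Icilin and vehicle points separate for Eif3j1, Eif3c, Eif3e, Eif3a and Eif3f and mix for the other 7 genes.

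The measured eIF4 genes cover the cap-binding proteins, the helicases, their helpers and the scaffolds Eif4g2 and Eif4g3. None of the 13 passed the adjusted p, and their median was -0.02, or 0.0015 with arrays centred on their median. Before adjustment, 1 higher (Eif4a3) and 1 lower (Eif4a3l1) were at a p under 0.05, which is 15.4% of the 13 beside 17.1% of all genes. The cap-binding protein gene Eif4e had 10.21 to 10.28 in icilin arrays and 10.26 to 10.34 in vehicle arrays (-0.06 ± 0.06, limma adjusted p = 0.689). The relatives Eif4e2 (-0.05) and Eif4e3 (-0.13) also had overlapping groups. Eif4e1b, whose protein is known from oocytes, read 2.67 to 3.19 in icilin arrays and 2.88 to 2.93 in vehicle arrays, and 80.3% of genes were brighter. Eif4enif1, which encodes a transporter that carries eIF4E into the nucleus, differed by -0.01.

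Among the helicase genes, Eif4a3 had the smallest p of the eIF4 group. Its protein is the helicase of the exon junction complex, which marks spliced mRNA, rather than the eIF4A of cap-dependent initiation. Eif4a3 stood at 6.40, 6.35 and 6.43 in icilin arrays, against 6.21, 6.11 and 6.12 in vehicle arrays. All icilin arrays were above all vehicle arrays, by 0.25 ± 0.06, but the limma adjusted p was 0.109. With dim genes left out, where 23.1% of the genes kept passed, it was 0.0216, and the intensity trend and centring also brought it under 0.1. It was 0.226 with the replicate number as a block and 0.135 to 0.273 without single arrays. Eif4a3l1, a related gene that resembles Eif4a3, differed by -0.21 ± 0.08 (limma adjusted p = 0.276) with overlapping groups. The initiation helicase Eif4a1 had 12.19 to 12.27 in icilin arrays and 12.18 to 12.26 in vehicle arrays (-0.02 ± 0.06), and Eif4a2 differed by 0.07 ± 0.08. A second probe set of Eif4a1 differed by 0.10 and the 2 others of Eif4a2 by 0.07 and 0.01, so the probe sets of Eif4a1 differed in sign and none passed.

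The helicase helper Eif4b had 11.31 to 11.37 in icilin arrays and 11.19 to 11.28 in vehicle arrays, without overlap (0.11 ± 0.06, limma adjusted p = 0.447). Eif4h, a relative of eIF4B, differed by -0.03 ± 0.06. The scaffold gene Eif4g2, whose protein lacks the eIF4E-binding site of its relatives, had 11.44 to 11.49 in icilin arrays and 11.35 to 11.44 in vehicle arrays (0.09 ± 0.06, limma adjusted p = 0.544). The scaffold gene Eif4g3 differed by -0.02 ± 0.07. These helper and scaffold genes were thus within 0.11 of vehicle on the log2 scale. The scaffold gene Eif4g1 was not among the members and was not analysed here.

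The last steps of initiation belong to eIF5, eIF5B and eIF6. Eif5, the gene of the GTPase-activating protein of eIF2, stood at 10.18, 10.27 and 10.18 in icilin arrays, against 9.98, 10.05 and 9.93 in vehicle arrays. All icilin arrays were above all vehicle arrays. The difference was 0.23 ± 0.07 (limma adjusted p = 0.143). With dim genes left out, where 23.1% of the genes kept passed, the limma adjusted p was 0.0327, and the intensity trend and centring also brought it under 0.1. It was 0.237 with the replicate number as a block and 0.219 to 0.325 without single arrays. Eif5b, the subunit joining GTPase, had 8.80, 8.65 and 8.61 in icilin arrays and 8.69, 8.38 and 8.38 in vehicle arrays, which overlap (0.20 ± 0.11, limma adjusted p = 0.389). Eif5a, a hypusine-bearing factor that acts mainly in elongation and termination, differed by -0.08 ± 0.06, and its relative Eif5a2 by 0.04 ± 0.10. Eif6, which keeps the large subunit from joining early, had 9.46, 9.28 and 9.30 in icilin arrays and 9.47, 9.39 and 9.39 in vehicle arrays (-0.07 ± 0.07, limma adjusted p = 0.700). The eIF5 genes had a median of 0.12 over 4 members.

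**Figure D3:**
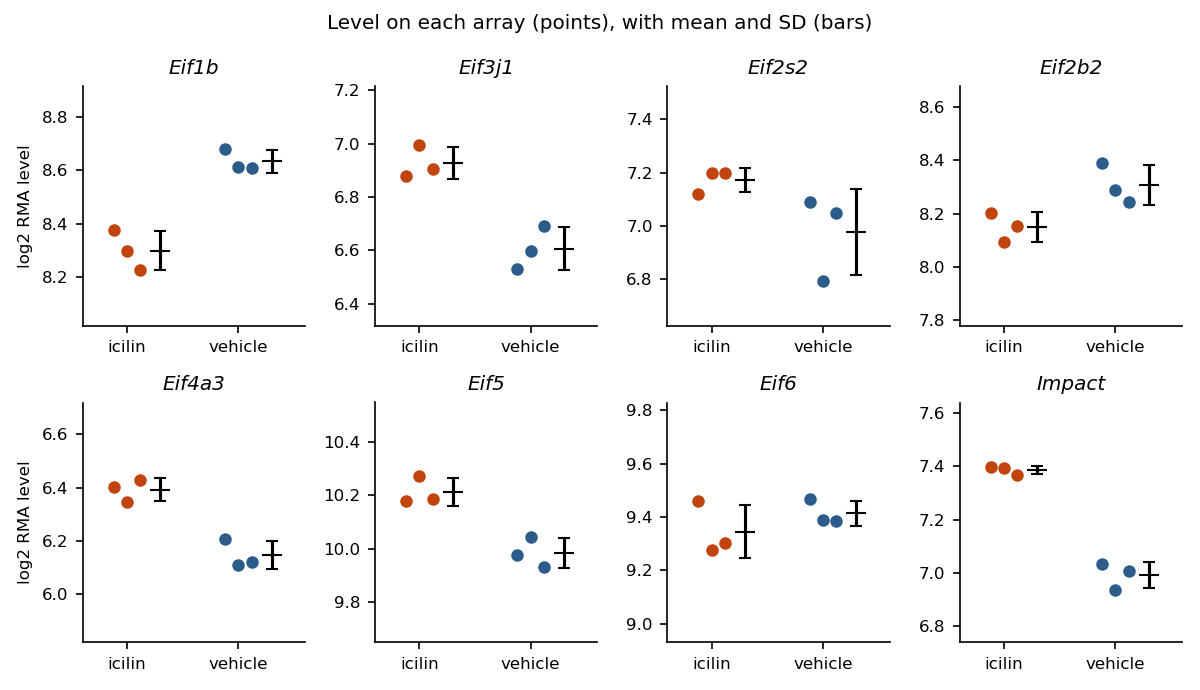
Log2 RMA level (y axis) on each array for the member with the smallest p in each of the 7 factor groups and for Impact, with icilin in orange, vehicle in blue, and mean and SD (n = 3) as black bars; every panel spans the same range on the log2 scale. The groups separate in all panels except that of Eif6, but the panels were chosen by small p, which favours separation. Of all 44 members 34.1% separated, beside 24.1% of all genes and 36.8% of genes brighter than the median gene.

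Genes that act on the initiation factors or later in translation were read beside them, from 8 lists with 44 measured genes of 48. By limma 0 changed, where 1.4% of all genes did, and 1 passed the adjusted p, which is 2.27% beside 5.28% of all genes. The median was 0.06, against 0.01 for all genes, with 34 above 0 and 10 below (77.3% above, beside 53.0% of all genes). Of the 44, 43 were brighter than the median gene, and 55.4% of such genes were above 0. The median size of 0.07 was near the median SE of 0.07. Genes on the same arrays are not independent, and the count of signs was not tested. The 1 gene past the adjusted p was Impact, whose protein holds back the eIF2 kinase GCN2 by binding its activator GCN1. Impact stood at 7.40, 7.39 and 7.37 in icilin arrays, against 7.03, 6.94 and 7.01 in vehicle arrays. Every icilin array was above every vehicle array, by 0.39 ± 0.06 (limma adjusted p = 0.0206), short of 1.5-fold.

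None of the eIF2 kinase genes passed the adjusted p. Eif2ak1, the kinase HRI of heme and mitochondrial stress, differed by 0.12, and Eif2ak2, the double-stranded RNA kinase PKR, by 0.04. Eif2ak3, the endoplasmic reticulum kinase PERK, differed by -0.13, and Eif2ak4, the amino acid sensor GCN2, by -0.10. Their limma adjusted p were 0.400 to 0.829. The genes of the phosphatase subunits that reverse eIF2 phosphorylation, Ppp1r15a (0.04) and Ppp1r15b (0.08), did not pass either. The arrays measure RNA, so phosphorylation of eIF2 was not seen by them.

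Of 6 measured genes that act on the cap-binding complex, 0 passed, and Eif4ebp1, which encodes the eIF4E inhibitor 4E-BP1, differed by 0.07 (limma adjusted p = 0.649). The member with the smallest p on that list was Mknk2, an eIF4E kinase gene (-0.13, limma adjusted p = 0.434), while 4 of the 6 were above 0, with a median of 0.07. Of 5 genes of scanning, recycling and reinitiation the helicase gene Dhx29 came closest (0.27 ± 0.08, limma adjusted p = 0.135). Among 5 poly(A)-binding protein and partner genes it was Paip2 (-0.13), on a list with 4 of 5 above 0 and a median of 0.06. Among 6 mitochondrial translation factors it was Tufm (-0.17), the only one below 0; the median was 0.07, and Tsfm differed by 0.19 (limma adjusted p = 0.278). Among 3 termination factors it was Gspt2 (-0.15), where the other two were above 0 and the median was 0.05, and among the 2 hypusine enzymes Dhps (-0.07). All 8 elongation genes were slightly above 0, from 0.02 to 0.13, with Eef1b2 highest (limma adjusted p = 0.461), and 0 passed.

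**Figure D4:**
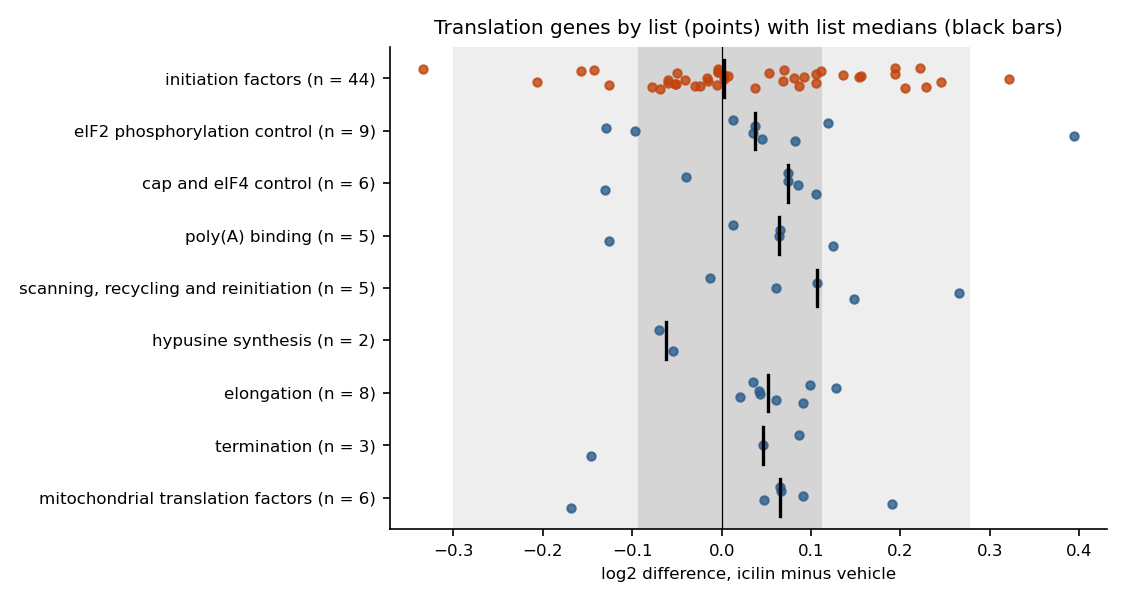
Log2 difference (icilin minus vehicle, x axis) of the 44 initiation factor genes (orange) and of 8 lists of other translation genes (blue), with black bars at list medians. Dark and light grey bands hold the central 50% and 90% of all genes; Impact at 0.39, Eif3j1 at 0.32 and Eif1b at -0.33 lie outside the light band.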

How the data were processed

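RNA of 6 cultures was measured, 3 with icilin and 3 with vehicle. The deposited values are log2 values that the authors made with RMA, per the series design text and the submitters' processing notes; no version is given in the sources used here. That text names SAM as the study's test, at 1.5-fold and with false discoveries held to 0.1. Of 41345 probe sets, 23521 had 1 gene symbol in the array annotation, 1814 several and 16010 none; the first kind gave 22180 genes, and 7 probe sets with a member among several genes were not used. Genes were compared with limma 3.58.1 in R 4.3.3 (lmFit, eBayes, 4 residual and 3.07 prior degrees of freedom), two-sided, with Benjamini-Hochberg adjustment over all genes. With 3 against 3 arrays a permutation test of a single gene cannot go below p = 0.1. Errors are SE of limma unless SD is stated, and the number of arrays limits precision. SAM (20 permutations) was written for this work, and both tests were tested on simulated data. Motifs were searched in promoter windows of RefSeq, assembly GRCm38.p6. Protein sequences were not used here.

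Nothing in the labels ties a replicate number to a mouse, and pairing was therefore not used in the comparison. Every member could be named; values per array were given for the members past the adjusted p, for the member with the smallest p in each factor group, and for the largest difference in each direction. Some further members are also given per array, chosen after their values were seen. From the other lists, members past the adjusted p or else with the smallest p were named, and the kinases, phosphatases, Tsfm and Eif4ebp1 after their values were seen. The members and lists were chosen with earlier results of these data known. The 4 other translation genes not measured were Eif4ebp3, Pdcd4, Cyfip1 and Rps6kb1. Plots and motif searches used matplotlib 3.10.9 and pandas 2.3.3 under Python 3.11.15.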

Additional observations from a re-analysis of the deposited data

How the results depend on the processing

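The count of 0 changed members (adjusted p and 1.5-fold) was found under all 14 alternatives run for it. The replicate block, the intensity trend, dim genes left out, SAM and an adjusted p under 0.05 leave the log2 differences as they were. The largest, -0.33 for Eif1b, is short of the 0.58 that 1.5-fold needs, so these alternatives could not give another count. The count of 2 members past the adjusted p was not stable. It was 10 of the 44 members with an intensity trend and robust variances (9 higher), a larger share than the 11.8% of all genes passing. Most members are bright, and the share of bright genes passing under that fit was not computed. With dim genes left out the count was 8 of the 41 bright members (7 higher), where 23.1% of the bright genes passed. It was 4 with arrays centred on their median, 1 by SAM, 0 at an adjusted p under 0.05 and 0 to 1 without single arrays, where fewer samples were fitted. The cause of the other shifts was not tested. Beside Eif1b and Eif3j1, Eif1a, Eif1ad, Eif3c, Eif3e, Eif4a3 and Eif5 passed under both the trend and the bright-gene fit, Eif3a and Eif4b with the trend alone, and Eif4a3 and Eif5 with centring. With the replicate number as a block the count was 0, while 552 genes passed in all instead of 1170; Eif1b then had a limma adjusted p of 0.129 and Eif3j1 one of 0.163. Deviations of same-numbered arrays correlated at -0.02 to -0.01 over all genes. This cannot decide whether such arrays came from the same mouse, because array noise could hide a mouse effect.

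The median over members was 0.028 with centred arrays, where that of all genes was 0.037, and -0.014 to 0.022 without single arrays. That of eIF2 was -0.050 with dim genes left out, -0.050 without Eif2c5 and Eif2s3y (chosen after seeing the data), and -0.047 to 0.15 without single arrays. Without single arrays the median of eIF2B was -0.016 to 0.024 and that of eIF5 0.056 to 0.17. The other medians moved by less than the spread between arrays; that of eIF4 was 0.0015 with centred arrays and -0.042 to 0.00026 without single arrays, and that of eIF3 0.026 to 0.060.

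Of the 44 members, 14 had a sign that turned under some alternative, none of them past the adjusted p. Centring turned 7, to 0.021 for Eif1ax, 0.022 for Eif2b4 and Eif2b5, 0.0089 for Eif3i, 0.011 for Eif4a1, 0.020 for Eif4enif1 and 0.0015 for Eif4g3. Quantile normalization turned 3, to 0.0019 for Eif2b4, -0.015 for Eif3b and -0.037 for Eif3k, and the mean of all probe sets gave -0.10 for Eif3d and 0.043 for Eif4a1. Without single arrays the difference was -0.046 to 0.071 for Eif1ax, -0.053 to 0.16 for Eif2c5, -0.026 to 0.013 for Eif2b4, -0.033 to 0.024 for Eif2b5, -0.013 to 0.022 for Eif3b, -0.015 to 0.026 for Eif3d, -0.058 to 0.020 for Eif3i, -0.034 to 0.029 for Eif3k, -0.22 to 0.044 for Eif4e1b, -0.032 to 0.024 for Eif4enif1, -0.078 to 0.023 for Eif4g3, -0.057 to 0.00026 for Eif4h and -0.041 to 0.12 for Eif5a2. Of the other named genes Eif2ak2 turned (-0.00075 to 0.067). The identity of paralog proteins was not run.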
